A study of Mus musculus with 29 samples.

Results

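The 10 genes described here mark cardiac fibroblasts or their activation: Tcf21, Ddr2, Thy1, Dpt, Fap, Pi16, Meox1, Mfap2, Cilp and Cthrc1. They were taken by symbol, and all 10 were found among the 29955 genes of the deposited mouse table. Of these, 9 had a mean of at least 0.5 FPKM (fragments per kilobase of transcript, scaled to the mapped fragments of the library) over the 24 libraries used and were tested together with 12759 genes in all. Cthrc1, with a mean of 0.448 FPKM, fell below that limit and is described by its values.

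The study asked how the heart changes when heart failure (HF) is induced in mice and the inducing agents are then withdrawn. Male C57BL/6J mice 3 months old were given L-NAME (0.3 mg/mL), an inhibitor of nitric oxide synthesis, together with NaCl (1%) to drink for 5 weeks, and received angiotensin II at 0.7 mg/kg/day from osmotic pumps of 28 days implanted at week 1. Hearts were taken during HF at week 3 (2 libraries) and week 5 (3), and during Recovery without the agents at weeks 7 (2), 9 (2), 11 (3), 13 (2) and 19 (5). Control week 19 mice (5 libraries) received none of the agents. They stood in as controls of every group. For the HF groups up to week 5 the treatment and an age difference of 14 weeks or more thus cannot be told apart. The Recovery groups of weeks 7 to 13 were also younger than these controls, and only Recovery week 19 was of the same age. Between HF week 5 and any Recovery group, withdrawal of the agents and age cannot be told apart either. The labels name whole ventricle and whole heart, and the methods name frozen apical portions. The methods also state that the experiment was repeated in 4 cohorts of mice, but no cohort is given for a library. Nothing in the table links a library to a labelled animal, and the libraries of a group are numbered by name only.

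Cardiac fibroblasts lie between the cardiomyocytes and make the collagens and other proteins of the matrix. Under pressure overload and angiotensin II they become activated, spread a denser matrix and, in part, take on contractile proteins of smooth muscle. Genes of identity, such as the transcription factor Tcf21, are known to be expressed in resting fibroblasts, while genes of activation, such as Meox1 and Cthrc1, are known to rise in stressed hearts. In bulk tissue, fewer cells of a type and less RNA of a gene per cell cannot be told apart.

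The absolute depth of the libraries is unknown, and the relative depth of 23 of them, read from the steps between low values, ranged from 0.728 (Recovery week 19 library 5) to 1.40. HF week 3 library 1 stood apart, since its low values gave no steps and 12816 of its genes were above 0, where the other libraries had 16339 to 18091, so the calls of HF week 3 against control are also given without it, while the group means of week 3 hold both libraries. The 10 most abundant genes held 27.9% to 37.4% of all FPKM in the libraries of Recovery weeks 7 to 13 and 37.5% in HF week 3 library 2, but 14.6% to 19.8% in all other libraries. That split runs between the 2 libraries of HF week 3 and otherwise follows the groups. The part of depth and of this split in the results was not tested.

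At HF week 5, 3 of the 9 tested genes had risen over control, and none had fallen. These were Cilp, Pi16 and Mfap2, all secreted or matrix proteins. Over all 12759 genes, 24.0% were called in this comparison and 11.6% were called higher. For so few genes, 3 of 9 is not far from the 24.0% called in either direction, and the difference was not tested. The call of Mfap2 rests on 1 library, and the genes were chosen with earlier results of these data known. A gene was called at an adjusted p under 0.05 in limma. Each of these 3 genes had its lowest HF week 5 library above its highest control library, which held in either direction for 29.5% of all genes tested.

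Cilp, a secreted glycoprotein of the matrix first known from cartilage, moved most. Its FPKM in the 5 control libraries was 1.21, 1.11, 1.25, 1.01 and 1.03, and at HF week 5 it was 10.8, 7.66 and 11.7. All 3 HF libraries thus lay far above a narrow control range. The mean FPKM was 10.04 ± 2.11 (SD, n = 3) against 1.12 ± 0.105 (n = 5), a ratio of 8.95, and the log2 fold change was 2.68 (SE 0.512, adjusted p = 0.00124). At HF week 3 Cilp stood at 15.7 and 20.3 FPKM, the highest values of all libraries, with a log2 fold change over control of 3.50 (SE 0.586), or 3.68 without week 3 library 1.

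Pi16, an inhibitor of peptidases found on fibroblasts that surround vessels, was also highest at HF week 3 and next at HF week 5, at a higher level. Its FPKM in control was 42.7, 29.0, 21.5, 34.7 and 27.5, and at HF week 5 it was 84.1, 57.7 and 67.6. The groups did not overlap, and the mean rose from 31.1 ± 8.01 to 69.8 ± 13.4 FPKM, or by 1.17 on the log2 scale (SE 0.265, adjusted p = 0.00384). At HF week 3 the 2 libraries had 168 and 131 FPKM, and the log2 fold change over control was 2.27 (SE 0.303), or 2.10 without week 3 library 1.

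Mfap2, a glycoprotein of the elastic microfibrils, had 3.29, 3.84, 3.40, 3.18 and 2.38 FPKM in control and 9.15, 5.25 and 4.88 FPKM at HF week 5. The highest value came from library 1, which lay well above the other two. The log2 fold change was 0.86 (SE 0.261, adjusted p = 0.0224). Without that library the log2 fold change was 0.59 and the adjusted p was 0.186, so the call for Mfap2 rests on it.

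Meox1, a homeobox transcription factor, did not pass the test at HF week 5. Its FPKM was 7.62, 7.54, 7.28, 8.12 and 11.4 in control and 10.5, 15.3 and 19.8 at HF week 5, so the lowest HF library lay below the highest control. The log2 fold change was 0.79 (SE 0.295, adjusted p = 0.0573). Without control library 5, the highest, the log2 fold change was 0.90 and the adjusted p was 0.0335, which passes the threshold, and with HF week 5 library 3 left out these were 0.58 and 0.233. At HF week 3 Meox1 had 56.4 and 20.5 FPKM, both above all other libraries of the series, and a log2 fold change over control of 1.98 (SE 0.338, adjusted p = 0.000117). That value was 1.26 without week 3 library 1 and 2.70 without library 2, and the call held in both.

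Cthrc1, a secreted glycoprotein with a collagen-like repeat, was highest at HF week 3 and low elsewhere. Its FPKM was 0.0774, 0.245, 0.124, 0.103 and 0.0767 in control, 3.25 and 1.80 at HF week 3, and 1.16, 0.274 and 0.146 at HF week 5. Both week 3 libraries were above every other library, and at week 5 only library 1 came near them. At Recovery week 13 Cthrc1 had 0.591 and 0.495 FPKM, above all control libraries. The log2 fold change there was 0.74, which did not pass (adjusted p = 0.504 in limma with no filter on low values). With no filter on low values, the log2 fold change over control was 2.24 (SE 0.321, adjusted p = 5.42e-05) at week 3 and 0.60 (SE 0.280, adjusted p = 0.175) at week 5. Without week 3 library 1 the week 3 value was 1.88 (adjusted p = 0.00369), an alternative chosen after the values were seen. From week 3 to week 5 Cthrc1 fell by 1.64 on the log2 scale in the same fit (adjusted p = 0.0103). That call was lost without week 3 library 1 (adjusted p = 0.162) and with only the 2 groups in the fit (0.533).

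**Figure D1:**
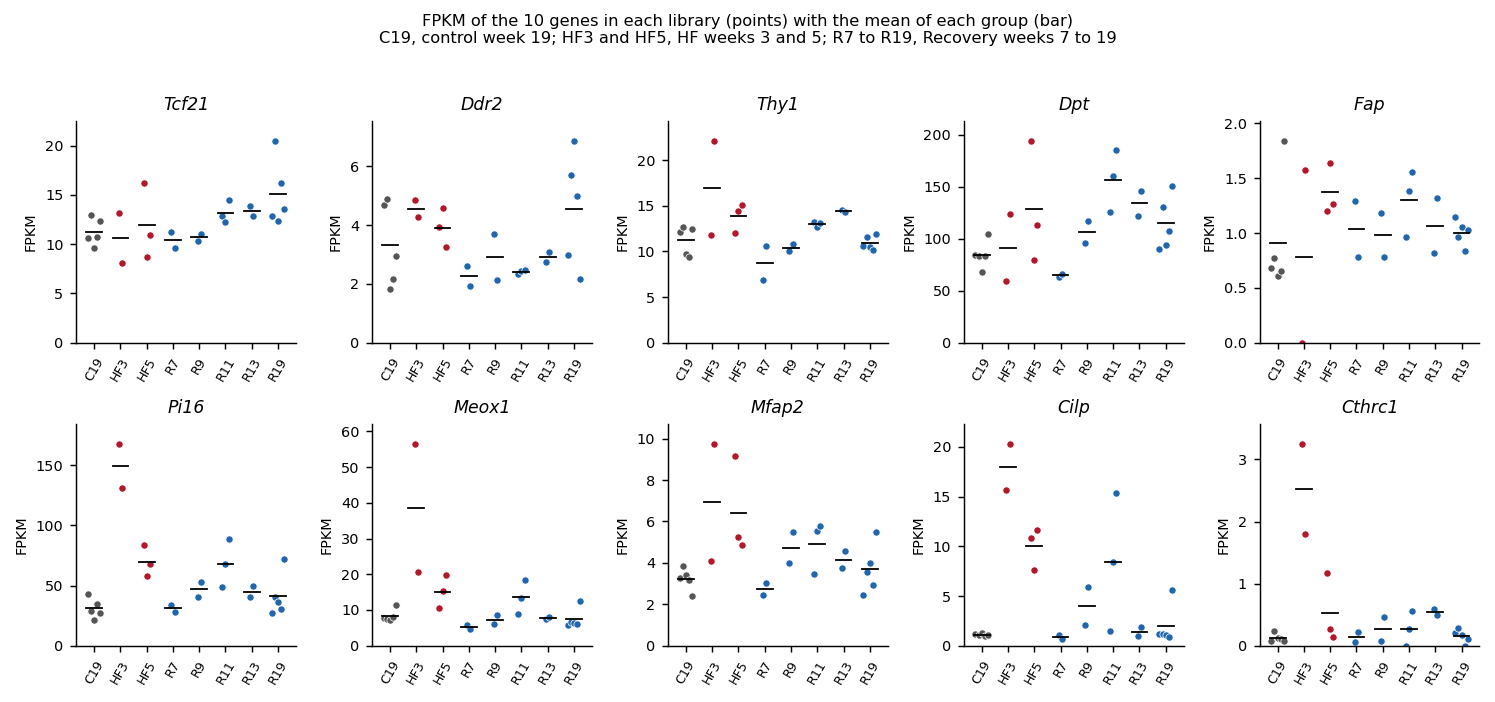
FPKM of the 10 genes (one panel each, linear axis from 0) in each of the 24 libraries by group, with points for libraries and a bar for the group mean; grey is control, red HF and blue Recovery. Cilp, Pi16, Meox1 and Cthrc1 are highest at HF week 3, low at Recovery week 7, and Cilp is above control again in all libraries of Recovery weeks 9 and 11 and in 1 library each of weeks 13 and 19, while Tcf21 overlaps control in every group.

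The other 5 genes, 4 of them genes of fibroblast identity and the fifth, Fap, one of activation, gave no call at HF week 5. Tcf21, the transcription factor that marks resting cardiac fibroblasts, had 10.6, 12.95, 9.59, 10.7 and 12.3 FPKM in control and 16.2, 8.70 and 10.9 FPKM at HF week 5. The HF libraries spread around the control range on both sides, and the log2 fold change was 0.05 with a 95% interval from -0.34 to 0.44. Ddr2, a receptor tyrosine kinase that binds collagen, ranged from 1.83 to 4.91 FPKM in control and from 3.24 to 4.57 FPKM at HF week 5, with a log2 fold change of 0.29 and an interval from -0.34 to 0.91. Its control libraries formed an upper pair, 4.69 and 4.91, and a lower set of 1.83, 2.16 and 2.96 FPKM, a wider spread than that of 96.7% of all genes tested.

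Thy1, a surface glycoprotein of fibroblasts that T cells and neurons also carry, had 12.1, 14.4 and 15.1 FPKM at HF week 5 against 9.35 to 12.7 in control (log2 fold change 0.29, interval -0.05 to 0.63). Dpt, a small matrix protein that binds decorin, had 194, 79.0 and 113 FPKM at HF week 5 against 68.3 to 104 in control. Library 1 was high and library 2 lay within the control range, and the log2 fold change was 0.52 (interval -0.01 to 1.05, adjusted p = 0.145). Without library 2 the log2 fold change of Dpt was 0.82 and passed the test, with an adjusted p of 0.0297, while without library 1 it was 0.18 (adjusted p = 0.707). Fap, a membrane-bound protease of activated fibroblasts, had 1.20, 1.64 and 1.27 FPKM at HF week 5 against 0.607 to 0.775 in 4 control libraries and 1.84 in control library 5 (log2 fold change 0.46, interval -0.21 to 1.13). For these 5 genes the upper bounds of the intervals lay between 0.44 and 1.13 on the log2 scale, so the data do not show that these genes did not rise.

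**Figure D2:**
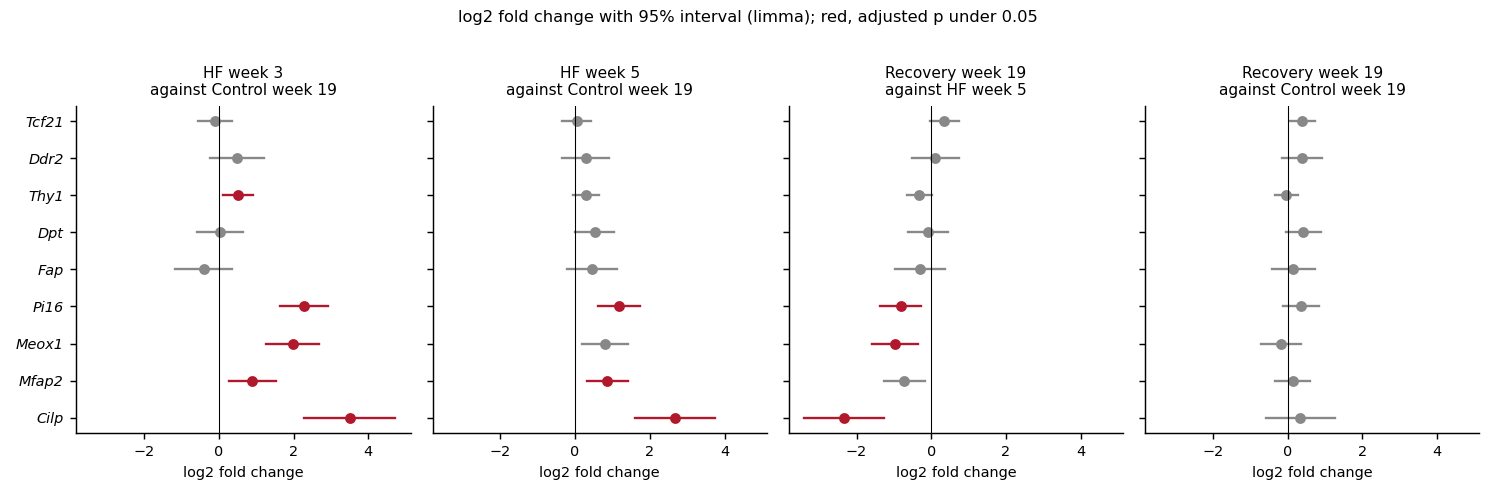
log2 fold change of the 9 tested genes (point) with its 95% interval (line) in 4 comparisons; red marks an adjusted p under 0.05 in limma. The HF panels show Cilp furthest to the right at 3.50 and 2.68, and in the panel of Recovery week 19 against control no gene is called.

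Sequence before the start site is shown for the 3 genes called at HF week 5, which rose together, and for Tcf21, which was not called. RefSeq promoter sequences of GRCm38.p6, a later build than that of the FPKM table, were matched by symbol for 6 of the 10 genes (Cilp, Ddr2, Dpt, Mfap2, Pi16 and Tcf21), and the 250 bases before each start are printed 5′ to 3′ on the gene's strand. Mfap2 has 2 starts in the table, at neighbouring positions, and both are shown. Cilp lies at chr9:65264930-65265179 (plus strand), Pi16 at chr17:29318632-29318881 (plus strand), the starts of Mfap2 at chr4:141010174-141010423 and chr4:141010431-141010680 (plus strand) and Tcf21 at chr10:22820144-22820393 (minus strand). Capitals mark every match to the letters searched for.
Cilp: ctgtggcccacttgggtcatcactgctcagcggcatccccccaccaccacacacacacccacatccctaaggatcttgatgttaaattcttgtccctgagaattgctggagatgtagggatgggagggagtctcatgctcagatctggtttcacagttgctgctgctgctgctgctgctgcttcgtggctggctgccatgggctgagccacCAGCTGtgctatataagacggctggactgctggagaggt
Pi16: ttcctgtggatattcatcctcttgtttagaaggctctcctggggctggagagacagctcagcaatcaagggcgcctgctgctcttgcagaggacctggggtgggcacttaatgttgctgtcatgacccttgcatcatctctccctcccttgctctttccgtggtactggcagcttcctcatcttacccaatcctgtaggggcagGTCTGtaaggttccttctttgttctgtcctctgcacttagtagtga
Mfap2, upstream start: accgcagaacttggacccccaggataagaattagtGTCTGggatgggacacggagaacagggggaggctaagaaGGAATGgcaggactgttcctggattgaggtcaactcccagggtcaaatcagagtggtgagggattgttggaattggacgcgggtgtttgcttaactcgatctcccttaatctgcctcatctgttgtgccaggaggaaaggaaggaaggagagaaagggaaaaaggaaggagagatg
Mfap2, downstream start: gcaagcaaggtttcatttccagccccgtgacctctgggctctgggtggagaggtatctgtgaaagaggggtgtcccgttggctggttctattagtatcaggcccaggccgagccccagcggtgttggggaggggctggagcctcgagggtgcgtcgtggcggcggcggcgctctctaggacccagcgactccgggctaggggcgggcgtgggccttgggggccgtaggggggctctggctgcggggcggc
Tcf21: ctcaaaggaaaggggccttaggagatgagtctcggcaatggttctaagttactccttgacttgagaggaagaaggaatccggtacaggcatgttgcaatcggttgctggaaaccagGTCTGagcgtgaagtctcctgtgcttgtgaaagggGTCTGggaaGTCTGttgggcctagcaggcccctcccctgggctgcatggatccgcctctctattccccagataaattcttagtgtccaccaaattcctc

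The letters were searched for on both strands. TGANTCA stands for the site of AP-1, the Fos and Jun factors. TEAD factors were given by CATTCC. SMAD factors, which carry the TGF-beta signal, were given by CAGAC, letters short enough to be met often. The E-box was given by CAGCTG, and the TATA box by TATAAA alone. Letters close to TATAAA, such as tatataag after the E-box of Cilp, were not counted or marked. The CArG box of serum response factor was searched for by its usual consensus, which can hold the letters of the TATA box. Cilp holds 1 E-box, from base -39 to -34 before the start, and 4271 of all 32851 promoter entries hold at least 1. Pi16 holds 1 SMAD match from -46 to -42, and the upstream start of Mfap2 holds 1 SMAD match and 1 TEAD match. Tcf21 holds 3 SMAD matches between -134 and -86, so the gene that was not called had the most of them, and 42.2% of all entries hold at least 1. TEAD letters occur in 12.6%, AP-1 in 6.75%, TATA in 12.4% and the CArG box in 1.47% of all entries, and neither AP-1 nor the CArG box was found before these 6 genes. The downstream start of Mfap2 is the one rich in G and C, at 68.8% with 18 CpG, against 51.2% to 56% with 2 to 5 CpG in the other 4 stretches printed. No set of letters was shared by the 3 genes called.

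Markers of other cell types moved in the same HF libraries. For the 7 epicardial and mesothelial and the 5 adipocyte markers only summed levels over the whole lists are given, because 5 and 3 of them passed the filter through the HF libraries alone, which leaves 1 and 0 to test. The summed epicardial and mesothelial FPKM was 1.99 to 3.37 in control, 83.0 and 257 at HF week 3, and 90.8, 34.9 and 12.3 in HF week 5 libraries 1, 2 and 3. The adipocyte sum was 0.146 to 0.367 FPKM in control, 214 and 99.8 at HF week 3 and 240, 223 and 1.51 at HF week 5. Library 3 was thus the one with the fewest of these markers. Of HF week 5, it had the highest Cilp (11.7 FPKM), Meox1 (19.8) and Thy1 (15.1) and the lowest Mfap2 (4.88), Cthrc1 (0.146) and Ddr2 (3.24), while library 1, with the most, had the highest Pi16 (84.1), Dpt (194), Mfap2 (9.15), Cthrc1 (1.16) and Tcf21 (16.2). Of 10 endothelial markers, 5 were called higher (sum 520 to 749 against 390 to 491 FPKM in control), and 2 of 10 cardiomyocyte markers, Pln and Ldb3, were lower (sum 21326 to 31535 against 27005 to 29919). Of 9 smooth muscle and pericyte markers, Cspg4 and Pdgfrb were higher and Abcc9 lower, and of 4 skeletal muscle markers tested, Acta1 and Tnnt3 were higher. The skeletal muscle list already summed to 2786 to 3365 FPKM in control hearts, so its markers are not read as a sign of skeletal muscle here. Of 9 macrophage markers tested, none was called at HF week 5. The summed FPKM of 10 T and B cell markers was 5.33 to 7.80 against 2.47 to 4.46 in control, with no overlap. No epicardial, mesothelial, adipocyte, endothelial or cardiomyocyte marker was at 0 in all libraries of control or of HF. Their part in the results was not tested.

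Against the same control, 5 of the 9 genes were higher at HF week 3 and none lower: Cilp, Pi16, Meox1, Mfap2 (log2 fold change 0.90, adjusted p = 0.0177) and Thy1 (0.51, adjusted p = 0.0288). Over all genes 50.7% were called, 23.1% were higher, and for 45.3% the groups did not overlap, so calls were common at this time. Cilp, Pi16 and Meox1 were called with either week 3 library left out. Mfap2 had 4.11 and 9.73 FPKM and Thy1 11.8 and 22.1 FPKM, the high values in library 2, and without library 2 neither passed (adjusted p = 0.421 and 0.756). Both calls were also lost with only these 2 groups in the fit (0.0566 and 0.147), and that of Thy1 with median centring (0.0564). Fap was listed at 0 in library 1 and had 1.57 FPKM in library 2, so its week 3 mean joins libraries that differ in direction. Its log2 fold change from control was -0.41 and not called, against 0.62 without library 1 and -1.43, then called, without library 2. Without library 1, the library with few genes above 0, the count was again 5. At week 3, 7 of 10 endothelial markers were called higher and 1 (Kdr) lower, 3 of 9 macrophage markers higher and 1 (Cd68) lower, and 5 of 10 cardiomyocyte markers lower, beside the epicardial, mesothelial and adipocyte sums given above. Of the smooth muscle and pericyte markers, Cspg4 and Pdgfrb were higher and Smtn and Abcc9 lower. Acta1 and Tnnt3 of the skeletal muscle list were higher, and Sox10, a marker of Schwann cells, was lower. Their part in these results was not tested.

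Between HF weeks 3 and 5, with the agents still given, 2 of the 9 genes fell, Meox1 (log2 fold change -1.19, SE 0.369, adjusted p = 0.0311) and Pi16 (-1.10, SE 0.331, adjusted p = 0.0277), where 21.4% of all genes were called and 8.28% fell. For both genes the 2 libraries of week 3 lay above the 3 of week 5. Cilp also had both week 3 values above those of week 5, with a log2 fold change of -0.82 that did not pass (adjusted p = 0.350). Over all genes 27.5% did not overlap between these weeks in either direction, beside these 3 of 9. The summed epicardial and mesothelial markers, at 83.0 and 257 FPKM, were lower at week 5 in 2 of 3 libraries (34.9 and 12.3) and within that range in library 1 (90.8), 4 of 10 cardiomyocyte markers were called higher. Smtn and Abcc9 of the smooth muscle and pericyte markers were also higher, and Cspg4 of that list, Esam (endothelial) and Tnnt3 (skeletal muscle) were lower. Their part in these results was not tested. The counts of this comparison moved between 0 and 4 when single libraries were left out, and it was 0 without HF week 3 library 1 and also 0 without HF week 5 library 2. With only these 2 groups in the fit neither gene passed (adjusted p = 0.533 for both), and with no filter Meox1 did not (0.0542).

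At Recovery week 7, 2 weeks after withdrawal, 5 of the 9 genes were lower than at HF week 5, where 14.8% of all genes were called and 6.75% were lower. Cilp had returned to 1.07 and 0.659 FPKM, within or below the control range, with a log2 fold change from HF week 5 of -2.95 (SE 0.640, adjusted p = 0.00584). Meox1 had 5.88 and 4.68 FPKM, both below all control libraries (-1.40, SE 0.369, adjusted p = 0.0166). Pi16 had 33.9 and 28.4 FPKM, within the control range (-1.14, SE 0.331, adjusted p = 0.0271). Mfap2, at 2.43 and 3.01 FPKM, and Thy1, at 6.85 and 10.6 FPKM, were the other two (-1.06 and -0.66, adjusted p = 0.0354 and 0.0364). With no filter the calls of Mfap2, Pi16 and Thy1 were lost (adjusted p = 0.0649, 0.0511 and 0.0579). With only the 2 groups in the fit, those of Meox1, Mfap2, Pi16 and Thy1 were lost (0.0588, 0.0887, 0.0503 and 0.127). Median centring also lost that of Thy1 (0.0573). Dpt, at 63.3 and 65.9 FPKM, lay below every control library, but its difference from HF week 5, -0.89 on the log2 scale, did not pass (adjusted p = 0.0647). Without either library of week 7 the count was 1, and without HF week 5 library 1 it was 3, so most of these calls need all of them. Against control, no gene was called at week 7, where 0.047% of all genes were, and the 2 that did not overlap with control, Meox1 and Dpt, stand beside 15.6% of all genes. Between HF week 5 and Recovery week 7, 5 of 10 endothelial and 2 of 9 macrophage markers and Tnnt3 (skeletal muscle) were also called lower, and Abcc9 (smooth muscle and pericyte) higher. The summed epicardial and mesothelial FPKM was 2.75 to 3.48 at week 7 and the adipocyte sum 0.320 to 1.00, against 12.3 to 90.8 and 1.51 to 240 at HF week 5, and the part of these markers in the results was not tested.

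**Figure D3:**
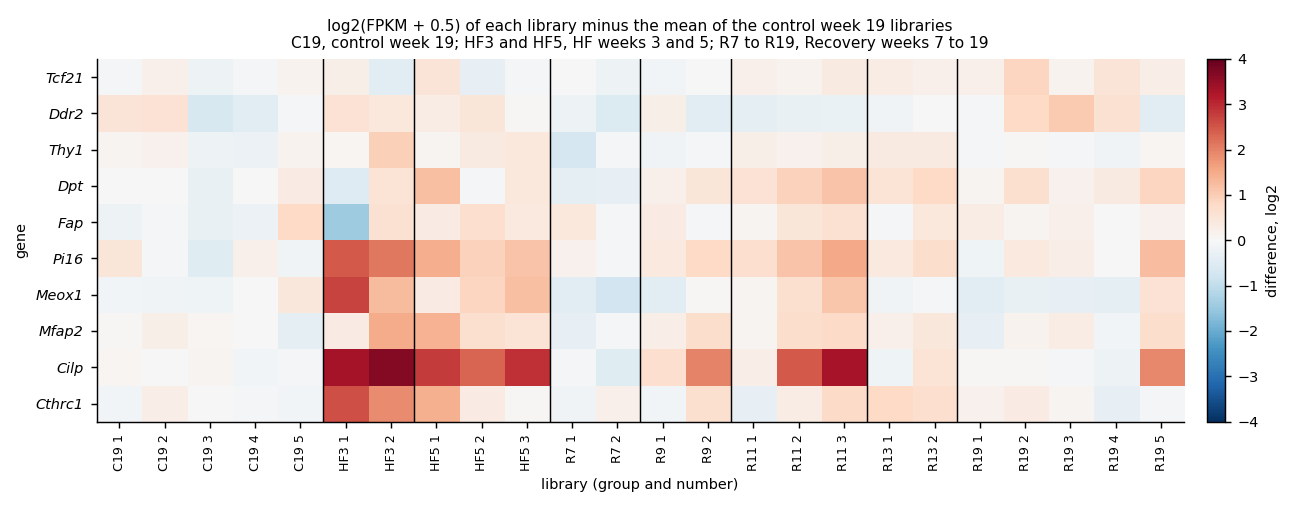
Difference of log2(FPKM + 0.5) in each library (columns, by group and number) from the mean of the 5 control libraries, for the 10 genes (rows); red is higher and blue lower. Cilp is red in all 5 HF libraries, pale in Recovery week 7, and after that reddest in Recovery week 9 library 2, week 11 libraries 2 and 3 and week 19 library 5.

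From Recovery week 9 to week 19 the libraries of a group lay far apart for Cilp. Its FPKM at week 9 was 2.10 and 5.92. In the 3 libraries of week 11 it was 1.46, 8.43 and 15.3, and week 13 gave 0.937 and 1.85. The 5 libraries of week 19 had 1.16, 1.17, 1.07, 0.897 and 5.58 FPKM. Both libraries of week 9 and all 3 of week 11 thus lay above the highest control (1.25), but 2 of week 11 alone reached the HF week 5 range of 7.66 to 11.7 FPKM or passed it, and at week 19 library 5 stood above control while the other 4 did not. The SD of Cilp at week 11, 1.56 on the log2 scale, was larger than that of 99.8% of all genes tested, and at weeks 9, 13 and 19 it was larger than that of 99.5%, 97.0% and 98.5%. In the other groups this share was 15.9% (control) to 85.4% (Recovery week 7). Pi16 was high in the same libraries. It was 48.6, 68.0 and 88.4 FPKM at week 11 and 71.9 in week 19 library 5, where the other 4 libraries had 27.0 to 40.2. Meox1 was 9.002, 13.2 and 18.3 FPKM at week 11 and 12.6 in week 19 library 5, against 5.91 to 6.72 in the other 4.

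At week 11, no gene was called against control after adjustment, when 0.149% of all genes were called. At an unadjusted p under 0.05, 4 of the 9 genes were higher, where 4.89% of all genes were: Cilp (log2 fold change 2.01, SE 0.512, adjusted p = 0.139), Pi16 (1.12, SE 0.265, adjusted p = 0.106), Dpt (0.88, SE 0.254, adjusted p = 0.198) and Meox1 (0.62, SE 0.295, adjusted p = 0.589). All 3 libraries of Dpt, with 125, 160 and 185 FPKM, lay above the control range of 68.3 to 104, and the same held for Cilp and Pi16, 3 of 9 genes beside 9.96% of all genes whose groups did not overlap in either direction. Without library 1, the lowest of week 11 for these 4 genes, Cilp (2.88, adjusted p = 0.00504) and Pi16 (1.34, adjusted p = 0.0433) were called. Without library 3, the highest, they were 1.37 (adjusted p = 1) and 0.91 (adjusted p = 0.829). At weeks 9 and 13, 0.0549% and 0.0784% of all genes were called and none of the 9. At an unadjusted p under 0.05, Cilp was higher at week 9 (1.34) and Dpt at week 13 (0.67). At week 9 Cilp and Mfap2 had both libraries above control, beside 15.2% of all genes that did not overlap. At week 13 Dpt (122 and 146 FPKM) and Thy1 (14.6 and 14.4 FPKM) had both above control, and the share of all genes was not counted there.

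Epicardial, mesothelial and adipocyte markers were lower in these libraries than in HF, while macrophage and T and B cell markers were mostly not. In Recovery week 9 library 2, week 11 libraries 2 and 3 and week 19 library 5, the summed epicardial and mesothelial FPKM was 1.89, 1.09, 1.53 and 2.29, within or below the control range of 1.99 to 3.37. The summed adipocyte FPKM was 1.31, 0.356, 0.350 and 0.386, where control had 0.146 to 0.367 and HF week 5 had 1.51 to 240, so week 9 library 2 and, by little, week 19 library 5 lay above control. Upk1b and Lep were listed at 0 in all libraries of week 11. The macrophage sum was above control (329 to 537 FPKM) in all 4, with 550 in week 9 library 2, 597 and 846 in week 11 libraries 2 and 3, and 856 in week 19 library 5. The T and B cell sum was also above control (2.47 to 4.46 FPKM) in all 4, with 4.51, 6.25, 6.98 and 5.33 in the same order. Both sums were also above control in libraries with lower Cilp. Recovery week 19 library 2 had a macrophage sum of 819 and Cilp at 1.17 FPKM, and week 13 library 2 had 929 and 1.85. These values were 769 and 1.46 in week 11 library 1, 697 and 0.937 in week 13 library 1, and 548 and 0.897 in week 19 library 4. The T and B cell sum was 4.57 in week 9 library 1, 5.47 and 7.64 at week 13, and 4.49 in week 19 library 1. Library 5 of week 19 also had the lowest relative depth, 0.728. The part of these differences in the results was not tested.

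**Figure D4:**
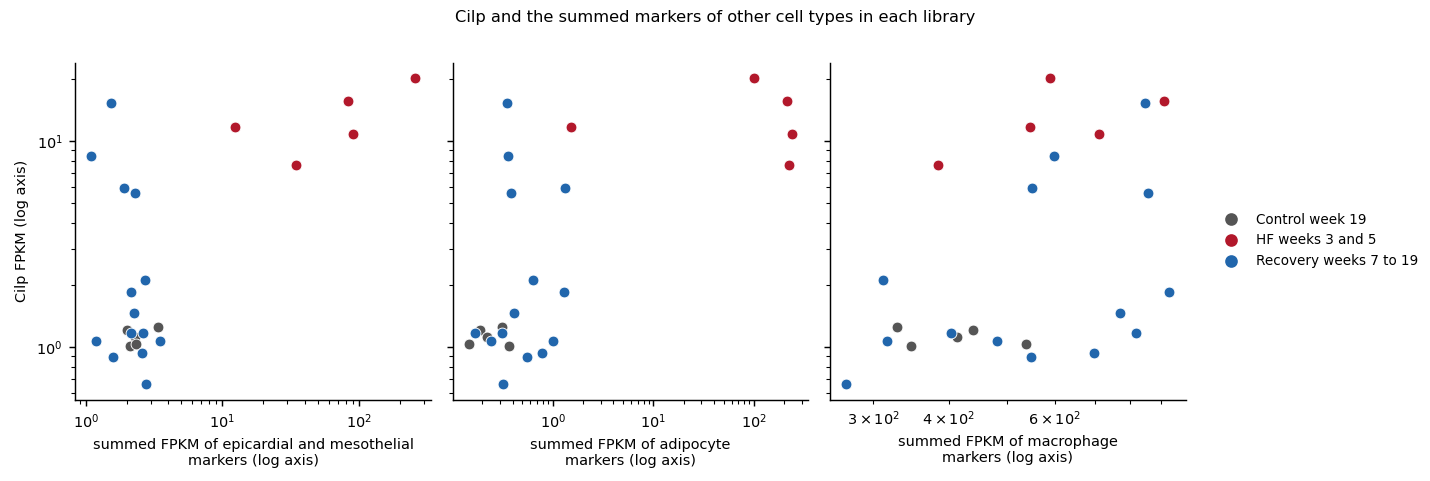
Cilp FPKM (vertical, log axis) against the summed FPKM of epicardial and mesothelial, adipocyte and macrophage markers (horizontal, log axes) in the 24 libraries, grey for control, red for HF and blue for Recovery. The 4 Recovery libraries with Cilp above 5 FPKM lie at the low marker sums of control in the first panel, while the HF libraries lie at 12.3 to 257 FPKM.

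By Recovery week 19, 3 of the 9 genes were lower than at HF week 5 and none higher, where 24.2% of all genes were called and 12.0% were lower. Cilp fell by 2.34 on the log2 scale (SE 0.512, adjusted p = 0.00324), Meox1 by 0.97 (SE 0.295, adjusted p = 0.0223) and Pi16 by 0.82 (SE 0.265, adjusted p = 0.0295). Mfap2, at 2.46, 3.56, 4.00, 2.92 and 5.48 FPKM, differed by -0.72 (adjusted p = 0.0506) and did not pass. Without week 19 library 5 the log2 fold change of Cilp was -2.73 and that of Mfap2 -0.86, and all 4 passed. The call for Pi16 was lost without any one of HF week 5 library 1 (adjusted p = 0.153) or 3 (0.0651) and week 19 libraries 1, 3 or 4 (0.0534 to 0.0665), and also with no filter (0.0522) and with only these 2 groups in the fit (0.0724). That for Meox1 was lost without HF week 5 library 2 (0.0567) or 3 (0.113). Tcf21 was called higher at Recovery week 19 without HF week 5 library 1 (log2 fold change 0.58, adjusted p = 0.0483). The groups did not overlap for Cilp, Fap and Thy1 alone, a share of 3 of 9 beside 26.7% of all genes. In the same comparison, 4 of 10 endothelial markers were called lower, and the cardiomyocyte markers Pln and Ldb3 higher. Of the smooth muscle and pericyte markers, Myh11, Cspg4 and Pdgfrb were lower and Rgs5 and Abcc9 higher, and the skeletal muscle markers Acta1 and Tnnt3 were lower. The week 19 sums were 1.18 to 2.60 FPKM for epicardial and mesothelial and 0.168 to 0.550 FPKM for adipocyte markers, and the part of these markers in the result was not tested.

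Against Control week 19 of the same age, none of the 9 genes was called at Recovery week 19 in limma, where 0.0235% of all genes were called. Tcf21 was the one gene that passed without adjustment. It had 12.8, 20.5, 12.3, 16.2 and 13.6 FPKM against 9.59 to 12.95 in control, a log2 fold change of 0.39 (interval 0.06 to 0.73, adjusted p = 1). Cilp had a log2 fold change of 0.35 with an interval from -0.58 to 1.27, and -0.04 without library 5. The intervals of the other 7 genes all included 0, and the widest upper bounds were those of Ddr2 (0.93) and Dpt (0.88). Ddr2 again split within the group, with 5.71, 6.87 and 5.00 FPKM in libraries 2 to 4 and 2.97 and 2.16 in libraries 1 and 5.

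Counted by library, the 10 genes were above all 5 control libraries in 6 or 7 of 10 cases in each HF library, in none of 10 in both libraries of Recovery week 7, and in 8 of 10 in week 11 library 3. For all genes tested the share above the highest control was 28.9% to 37.8% in HF, 19.6% and 20.6% at week 7 and 24.8% in week 11 library 3. The counts were 2 and 5 of 10 at week 9, 4 and 6 in week 11 libraries 1 and 2, and 4 and 6 at week 13. Beside them stood 13.1%, 20.1%, 17.6%, 15.8%, 22.9% and 21.4% of all genes. At week 19 the counts were 0, 4, 2, 3 and 6 of 10 in libraries 1 to 5, beside 22.6%, 21.5%, 11.7%, 16.2% and 27.8% of all genes. Libraries 2 and 4 were both counted for Tcf21, Dpt and Ddr2, genes of identity, and library 2 also for Cthrc1, while library 5 was counted for Tcf21, Meox1, Cilp, Pi16, Dpt and Mfap2.

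**Figure D5:**
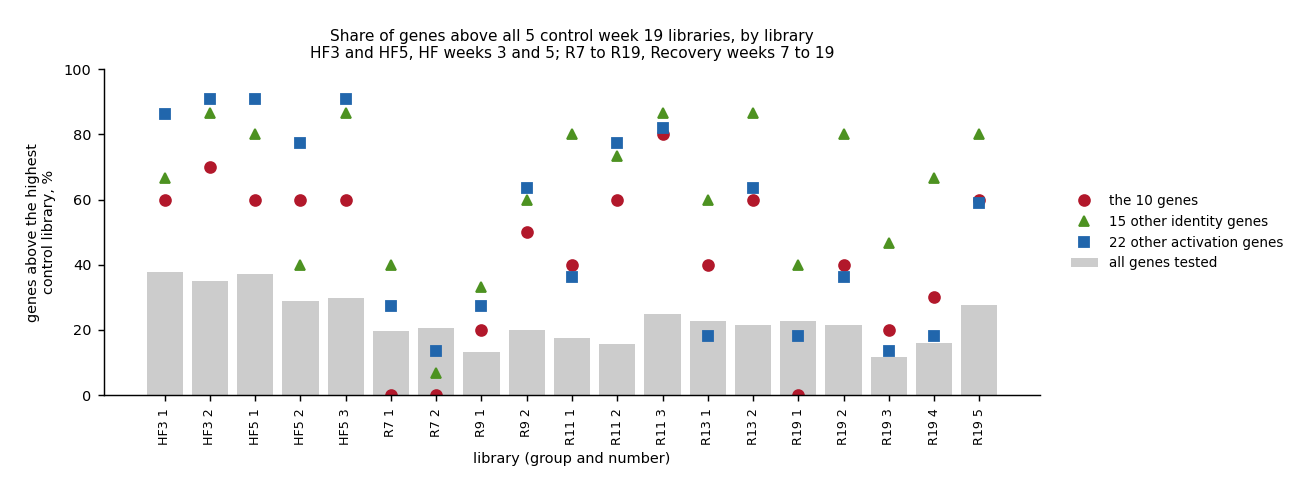
Share of genes above the highest of the 5 control libraries (vertical, %) in each HF and Recovery library (horizontal): circles for the 10 genes, triangles and squares for 15 other identity and 22 other activation genes, and grey bars for all genes tested. The circles stand at 60% to 70% in the HF libraries, at 0% in Recovery week 7 and at 60% in week 19 library 5.

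Other fibroblast genes, in lists written with earlier results of these data known, were read beside the 10. Of 22 other activation genes, 19 passed the filter, as they did without the HF libraries, and 16 of these were higher at HF week 5 with a median log2 fold change of 1.17, against a median of 0.04 over all genes. The 3 most abundant were Ctgf, a matricellular protein, at 104 against 22.5 FPKM in control (log2 fold change 2.16, SE 0.213), Acta2, the smooth muscle actin of myofibroblasts, at 102 against 51.1 FPKM (0.96, SE 0.223), and Tagln, a protein that binds actin, at 58.9 against 32.4 FPKM (0.85, SE 0.237). By Recovery week 7, 11 of the 19 were lower than at HF week 5, and by week 19, 14 were. Without HF week 5 library 1, 10 were higher than control at HF week 5 and 8 were lower at week 19. At Recovery week 11, 2 of the 19 were called higher than control, Ctgf at 48.8 FPKM (1.11, adjusted p = 0.0389) and Comp, a matrix protein, at 9.67 against 0.901 FPKM (2.73, adjusted p = 0.0267).

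Of 15 other identity genes, all tested, 9 were higher and 2 were lower at HF week 5, with a median log2 fold change of 0.54. The 3 most abundant were Gsn, an actin-severing protein, at 1199 against 632 FPKM (0.87, SE 0.207), Dcn, a proteoglycan that binds collagen, at 374 against 188 FPKM (0.95, SE 0.242), and Fbln1, a matrix glycoprotein, at 80.9 against 32.4 FPKM (1.19, SE 0.333). Those higher included the collagens Col1a2 and Col3a1, and without HF week 5 library 1 only 1 of the 15 was called higher. The 2 that fell were Smoc2, a matricellular protein, from 7.71 to 15.7 FPKM in control to 0.883 to 5.98 FPKM at HF week 5 (log2 fold change -2.17, SE 0.346, adjusted p = 0.000315), and Scara5, a scavenger receptor, from a mean of 6.96 to 3.67 FPKM (-0.89, SE 0.217, adjusted p = 0.00635). Both were higher again at Recovery week 7 than at HF week 5, Smoc2 by 2.35 and Scara5 by 1.08 on the log2 scale, and both were named after their values were seen. Pdgfra, the receptor used to mark fibroblasts, was 3.18 FPKM in control, 4.87 at HF week 5 (0.54, adjusted p = 0.0178) and 6.15 at Recovery week 11, where it was the only one of the 15 called (0.85, adjusted p = 0.0326).

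In the order of group means, HF week 3 came first for Meox1, Cilp, Pi16 and Cthrc1, with no overlap with the next group, and for Thy1, Mfap2 and Ddr2, with overlap, and HF week 5 came second for Meox1, Cilp, Pi16 and Mfap2, where its range overlapped that of Recovery week 11. Recovery week 7 was last for Meox1, Cilp, Mfap2, Dpt, Thy1, Ddr2 and Tcf21. Tcf21 was highest at Recovery week 19, with a mean of 15.1 FPKM, and lowest at week 7, with 10.4, and every neighbour in that order overlapped. Dpt was highest at Recovery week 11, with a mean of 157 FPKM, above HF week 5 with 129, and these overlapped too.

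Genes with the most similar pattern were taken as those with the smallest root mean square difference from a gene in log2 change from control over the 8 groups, control included. For Cilp these were Ltbp2 (0.32), Ahsg (0.34) and Mfap4 (0.37). Ltbp2, a protein that binds latent TGF-beta, had log2 changes of 3.37 at HF week 3, 2.13 at HF week 5, 0.17 at Recovery week 7 and 1.81 at week 11, beside 3.50, 2.68, -0.27 and 2.01 for Cilp. For Pi16 they were Col14a1 (0.14), Anxa1 (0.15) and Igfbp4 (0.16), and Col14a1, a collagen of fibril surfaces, had 2.37, 1.33, 0.29 and 1.14 at these times beside 2.27, 1.17, 0.03 and 1.12 for Pi16. For Meox1 the nearest were Gm13889 (0.21), Sema3f (0.23) and Ugdh (0.23), and for Mfap2 Hn1 (0.11), Vgll3 (0.12) and Fxyd6 (0.12). For Tcf21 they were Cap1 (0.10), Cdk14 (0.10) and App (0.11), whose changes are also small. Among the 10 genes, Cilp was nearest to Pi16 (0.82) and Pi16 to Cthrc1 (0.41).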

How the data were processed

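Gene expression in mouse heart tissue was measured by paired-end RNA-seq. Per the study's methods and the labels, the authors used TopHat for alignment against the MGSCv37 (mm9) mouse genome and deposited FPKM values from Cuffdiff in 1 table of 29955 genes, with 1 column for each library. The gene annotation and the scaling between libraries are not given in the sources used here. The week in a column name gave its group. A further 5 columns of per-sample values were not used, because they outnumber the 4 labelled samples of Control week 5. Recovery week 9 was kept with 2 columns for its 3 labelled samples, and which sample has no column is not known. This left 24 libraries in 8 groups. The labels do not link a column to an animal, so p-values measure the spread between these libraries.

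All groups were fitted together in limma 3.58.1 (R 4.3.3) on log2(FPKM + 0.5), with 1 mean per group, a trend on the mean and 16 residual degrees of freedom, over 12759 genes whose mean reached 0.5 FPKM. Tests were two-sided with Benjamini-Hochberg adjustment over all genes tested, and a gene was called at an adjusted p under 0.05. The study's methods give Cuffdiff at an unadjusted threshold, which was kept as an alternative. Fold changes are on the log2(FPKM + 0.5) scale and understate changes of low genes. On simulated data for HF week 5 against Control week 19, the fit recovered 78% of changes of log2 size 1 and 95% of size 2 (100 genes each among 12759). The simulation gave each gene the same normal spread in all groups and changed fewer genes than were called here. These rates thus need not hold in the data. The members and lists were chosen with earlier results of these data known. Named were all 10 members, the 3 most abundant genes of each other fibroblast list and the 3 genes of most similar pattern for members; markers of other cell types, and Pdgfra, Smoc2, Scara5, Comp, Col1a2 and Col3a1, were named after their values were seen. Relative depth was read from genes above 0 in at most 8 libraries. Alternatives were other pseudocounts (0.1 and 1), filters, scalings and fits, and leaving out libraries. Python 3.11.15 was used for tables (pandas 2.3.3, numpy 2.4.6) and plots (matplotlib 3.10.9).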

Additional observations from a re-analysis of the deposited data

Results flagged for a closer look

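In groups of 5 libraries, 20 sets of values of the 10 genes were examined for a single library far from the others, and 5 such cases were found in 3 libraries. Chance gives about 1 in 20 for independent sets of normal values. These sets are untransformed FPKM of genes in the same libraries, so that rate need not hold here. The gap to the nearest library was compared with Dixon's limit of 0.71 of the group's range. In control, library 5 was highest for Meox1 (11.4 FPKM, a gap of 0.795 of the range) and for Fap (1.84 FPKM, 0.864), and library 2 was highest for Cthrc1 (0.245 FPKM, 0.720). At Recovery week 19, library 5 was highest for Meox1 (12.6 FPKM, 0.879) and for Cilp (5.58 FPKM, 0.942). The changes of Meox1 and Pi16 from Control week 19 differed between HF week 5 and HF week 3, by -1.19 and -1.10 on the log2 scale, in the test of that difference in limma (adjusted p = 0.0311 and 0.0277). Both groups of HF are compared with the same control libraries here, so the difference is that between the HF weeks themselves.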

How the results depend on the processing

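Cilp was called at HF week 5 over control, and at Recovery week 19 against HF week 5, under every alternative run. Fold changes of single genes were followed for the 3 comparisons among HF week 5, Recovery week 19 and control, and elsewhere where the unadjusted p was under 0.05, and for Cthrc1 with no filter in both comparisons with HF week 3. Of these, 427 values under other settings and 322 with 1 library left out kept their direction and their side of the threshold, while 17 and 32 lost a call and 19 and 9 gained one. Among them signs turned only for values that were not called, as follows. For Tcf21 at HF week 5 against control the log2 fold change was -0.011 with median centring and -0.19 to 0.24 with 1 library left out. With 1 library left out, Dpt (-0.40 to 0.25) and Ddr2 (-0.057 to 0.31) at Recovery week 19 against HF week 5, Cilp (-0.045 to 0.49) and Thy1 (-0.091 to 0.016) at Recovery week 19 against control, and Fap (-0.15 to 1.90) between the HF weeks also changed sign. Meox1 at HF week 5 was called with quantile normalization (adjusted p = 0.0471), with the 2 groups alone (0.0266) and without the HF week 3 libraries (0.0191).

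Of the 9 genes, the number called between the HF weeks was 0 with only these 2 groups in the fit and 0 to 4 with 1 library left out. At Recovery week 7 against HF week 5 it was 2 with no filter, 1 with only the 2 groups and 1 to 5 with 1 library left out. At Recovery week 11 against control it was 1 with only the 2 groups, 4 at an unadjusted p under 0.05 and 0 to 2 with 1 library left out. At an unadjusted p under 0.05 it was 1 against control at Recovery weeks 9, 13 and 19. Counts of calls over all genes moved more. They were 3062 at HF week 5 against control, with 4653 unadjusted and 1355 without HF week 5 library 1, and 3092 at Recovery week 19 against HF week 5, with 4695 and 1545 in the same settings. At HF week 3 against control 6471 were called, with 4192 from the 2 groups alone, 3830 without library 1 and 7995 without library 2. Between the HF weeks 2732 were called, with 8 from the 2 groups alone, 4993 unadjusted and 166 to 6743 with 1 library left out. At Recovery week 7 against HF week 5 the count was 1888, with 319 from the 2 groups alone, 3064 without the HF week 3 libraries, 3805 unadjusted and 380 to 2153 with 1 library left out. Against control, the counts of 6, 7, 19, 10 and 3 at Recovery weeks 7, 9, 11, 13 and 19 were 461, 459, 1078, 1330 and 367 unadjusted. From the 2 groups alone they were 135 at week 11 and 399 at week 13, without the HF week 3 libraries 60 and 23, and with no filter 8 and 17, while week 7 gave 12 with no filter and 10 with quantile normalization. With 1 library left out they were 6 to 65 at week 11, 6 to 17 at week 13, and 5 at week 19 without library 5. The cause was not tested. No paired analysis was possible because the columns carry no replicate letters that tie them to labelled samples. Where a group of 2 libraries was left with 1, that library was assumed to vary like the other groups. Without a known read depth, the counting error of a single FPKM value could not be computed.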
